A study of Homo sapiens with 60 samples.

Results

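The comparison described here set HT29 cells given the high dose of an ethanol extract of Saposhnikoviae Radix (500 µg/mL) against HT29 cells given its medium dose (100 µg/mL), both for 24 h. It holds 6 of the 60 libraries of the series, 3 per dose, which were taken by their labels. The medium dose serves as the reference because 1 low-dose library stood apart in its measured profile. HT29 is an established human colorectal adenocarcinoma line, and Saposhnikoviae Radix is the dried root of Saposhnikovia divaricata, a herb of East Asian medicine that is known for chromones and furanocoumarins. Levels are RNA-seq CPM, that is counts scaled for library size. The low dose (20 µg/mL, replicates 1 and 3), 3 libraries of vehicle-treated HT29 cells (0.1% DMSO per the sample labels, 2% per the design text), the same 2 doses of Menthae Herba extract, 3 libraries each, and 1 library at each of these 2 doses of the formula Okbyeongpung-san were set beside it. All extracts are ethanol extracts per the labels. All groups are this same cell line, and no label tells if a replicate is a culture of its own. The p-values therefore rest on a spread among libraries that may be technical only. Vehicle libraries carry another library set name than the extract libraries, so their levels are given only as a description.

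The aryl hydrocarbon receptor (AHR) is a transcription factor that binds flat aromatic molecules, many of them from plants, and then switches on genes for oxidising enzymes such as CYP1A1 and CYP1B1. NRF2 is a transcription factor that is released by electrophiles and raises genes for glutathione synthesis and for reductases that detoxify carbonyls and quinones. SREBP2, which is held back when cells have enough sterol, raises the genes of cholesterol synthesis. In gut epithelium the first pair of these pathways is part of the handling of food and drug compounds.

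The 6 libraries held 20913794 to 29706036 counts. The 15 epithelial markers summed to 12580 to 12770 CPM at high dose and 12650 to 14190 CPM at medium dose. Their means over the 3 high-dose libraries were uneven, with 6377 CPM for KRT8 and 530.3 CPM for EPCAM but 0.856 CPM for the intestinal factor CDX1. CDX2 (4.4 CPM), CDH17 (2.9 CPM), GPA33 (2.3 CPM) and CEACAM5 (8.3 CPM) were also low. Apart from LYZ (mean 1462 CPM at high dose) and SERPINA1 (297.9 CPM), markers of other cells were low or at 0, with like sums in both groups. The 10 fibroblast markers summed to 3.06 to 3.76 CPM at high dose and 3.06 to 3.58 CPM at medium dose, with COL1A2 and PDGFRA at 0 in all 6 libraries. The 8 endothelial markers summed to 2.82 to 3.38 and 1.77 to 3.20 CPM, with CDH5, KDR, ERG and EMCN at 0. The 11 blood cell markers summed to 1408 to 1509 and 1438 to 1525 CPM, nearly all of it LYZ, with CD3E, CD3D, MS4A1 and HBB at 0, and the 11 hepatocyte markers summed to 293.6 to 307.1 and 305.7 to 334.2 CPM, nearly all of it SERPINA1, with FGB and FGG at 0. Medium replicate 1 stood apart from its group: 327 of 10598 genes of at least 5 CPM lay over 1.5-fold from the mean of its group mates, 322 of them below it, against 8 to 22 genes in the other 5 libraries. Its deviation went with transcript length: among 4 equal classes of transcript length, the median gene in the longest class was at -0.09 (log2) from its group mates and the median gene in the shortest at 0.06. Low replicate 2, whose highest correlation of log CPM with a group mate was 0.774 against 0.993 to 0.998 in these 6 libraries, entered no fit.

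The step from 100 to 500 µg/mL gave few called genes, which does not show that the other genes were unchanged. Of 16978 genes tested, 48 passed an adjusted p of 0.05 (0.283%), of which 27 were higher (0.159%) and 21 lower (0.124%) at the high dose. At an unadjusted p of 0.05, 1908 genes passed. Of the called genes, only CYP1A1 changed at least 2-fold, and 6 genes at least 1.5-fold (CYP1A1, LRRN4, CYP1B1 and AKR1C2 upwards, MX1 and LINC03040 downwards). CYP1A1, LRRN4, MX1 and LINC03040 were the 4 called genes of low level, with means of 2.31, 2.85, 4.24 and 2.73 CPM over the 6 libraries. The other called genes moved by less, down to a log2 change of -0.14 for VIL1. The central 95% of all 10570 genes with a mean of 5 CPM or more over the 6 libraries lay between -0.17 and 0.24. All 48 called genes had 3 high-dose libraries on one side of the 3 medium-dose libraries, which 14.5% of all tested genes also had (7.29% above and 7.2% below). Leaving out 1 library gave 17 to 414 called genes (17 without high replicate 2, 414 without medium replicate 2). The SE and p-values given here rest on a spread shared by all 56 libraries of the fit, not on these 6 alone. A fit of the 6 libraries alone called 4 genes: CYP1A1 (adjusted p = 0.0182), CYP1B1 (0.0252), ALDH3A1 (0.0327) and AKR1B10 (0.0252). Called in all 6 fits with 1 library left out were 13 genes, CYP1A1, CYP1B1, ALDH3A1, ALDH1A3, AKR1B10, AKR1C2, GCLM, UGT1A1, ABCG2, ADGRF1, LRRN4, SCD and TGFBI.

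**Figure D1:**
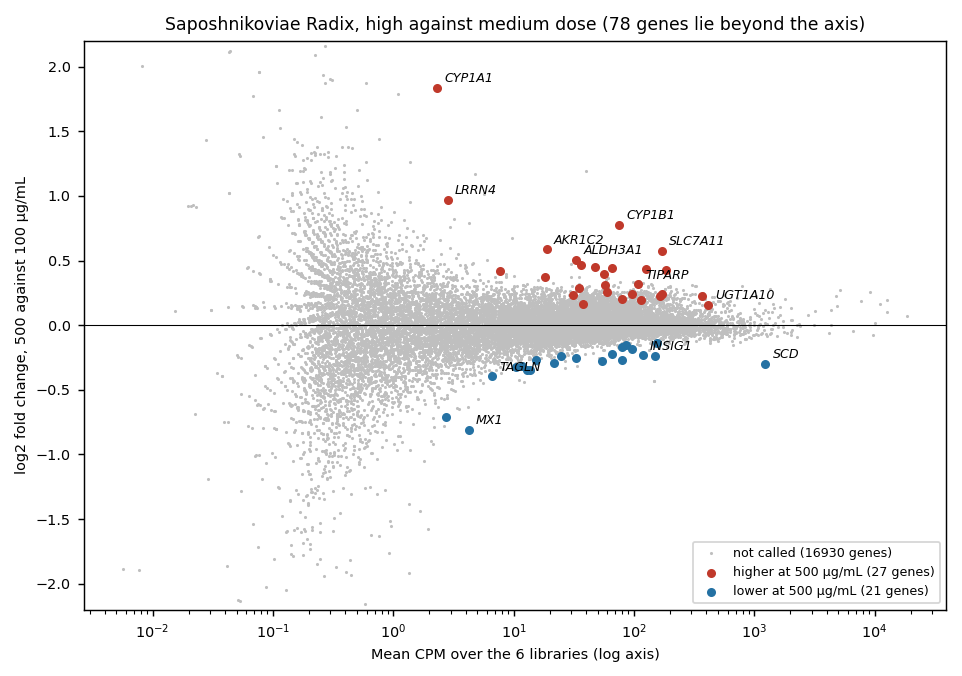
Log2 fold change between 500 and 100 µg/mL of Saposhnikoviae Radix (vertical axis) against the mean CPM over the 6 libraries (horizontal log axis) for each tested gene. The 27 genes called higher (red) and 21 called lower (blue) lie close to the cloud of genes that were not called (grey), apart from CYP1A1, CYP1B1 and few others, and 78 genes lie beyond the axis at 2.2, none of them called.

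The AHR targets included CYP1A1, the largest rise of all called genes. Of the 10 genes listed, 8 were tested, and 4 of them rose, beside 0.159% of all genes, and none fell, with a median log2 change of 0.28 against 0.00 over all genes tested. The promoters of CYP1A1 and TIPARP are shown because they hold the AHR core motif (GCGTG, searched on both strands, in capitals as read on the printed strand) in genes that rose. They are the 250 bases before a RefSeq transcription start on GRCh38.p14, for CYP1A1 at chr15:74725529-74725778 on the minus strand and for TIPARP at chr3:156674340-156674589 on the plus strand.
CYP1A1: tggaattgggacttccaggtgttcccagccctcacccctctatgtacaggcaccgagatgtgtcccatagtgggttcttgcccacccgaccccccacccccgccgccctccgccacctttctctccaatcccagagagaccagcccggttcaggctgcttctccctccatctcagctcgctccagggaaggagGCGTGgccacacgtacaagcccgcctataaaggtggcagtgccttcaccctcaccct
TIPARP: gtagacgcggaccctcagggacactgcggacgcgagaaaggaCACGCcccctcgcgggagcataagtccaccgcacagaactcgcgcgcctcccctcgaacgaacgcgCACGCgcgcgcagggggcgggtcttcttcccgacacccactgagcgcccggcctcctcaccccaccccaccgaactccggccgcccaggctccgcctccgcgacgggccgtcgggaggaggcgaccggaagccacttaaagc
In CYP1A1 the match begins 57 bases before the start, and in TIPARP 208 and 142 bases before it. TIPARP has 3 starts in the table, of which the first is shown, and the promoters of the other two hold no match, so that 2 of the 4 promoters of called AHR targets match. CYP1B1 and ALDH3A1 are not in the promoter table. The motif stands in 36.5% of the 35116 promoters of 300 bases in that table, in 15 of 31 promoters of the genes called higher (48.4%) and in 7 of 23 of those called lower (30.4%), so a match is a description of the sequence only.

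CYP1A1 (chromosome 15, 74719542 to 74725610 on the minus strand, GENCODE 29 on GRCh38), the AHR-induced monooxygenase of planar aromatics, stood at 3.44, 3.87 and 3.50 CPM in the high-dose libraries and at 1.02, 0.948 and 1.07 CPM in the medium-dose libraries. The low-dose libraries held 0.780 and 0.615 CPM and the vehicle libraries 0.689, 0.713 and 0.590 CPM. All 3 high-dose values lay above every other value of this gene in these groups. The rise from medium to high was 1.84 ± 0.21 (log2, SE, n = 3 per group, adjusted p = 1.26e-07), or 3.57-fold.

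CYP1B1 (chromosome 2, 38066973 to 38109902 on the minus strand), a monooxygenase of the same family that acts on steroids and polycyclic hydrocarbons, stood at 95.4, 95.7 and 95.0 CPM at high dose. At medium dose it stood at 48.4, 59.1 and 59.2 CPM, at low dose at 53.3 and 53.2 CPM, and in the vehicle at 45.7, 47.5 and 46.2 CPM. The low-dose libraries thus lay within the medium-dose range, the vehicle libraries just below it and the high-dose libraries well above it, with a log2 rise of 0.78 ± 0.05 (SE, adjusted p = 9.42e-16), or 1.71-fold.

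ALDH3A1, an aldehyde dehydrogenase, held 37.8, 40.6 and 38.3 CPM at high dose and 27.9, 27.6 and 26.5 CPM at medium dose, a log2 rise of 0.51 ± 0.04 (SE, adjusted p = 1.07e-10). The vehicle libraries, at 28.9 to 30.6 CPM, lay above the medium-dose libraries and below the high-dose ones. TIPARP, an ADP-ribosyltransferase that dampens AHR, held 126.1, 118.6 and 114.0 CPM at high and 96.4, 97.1 and 94.7 CPM at medium dose. Its log2 rise was 0.32 ± 0.06 (SE, adjusted p = 0.00501). The call was lost without high replicate 1 (adjusted p = 0.0761). The other 4 tested members did not pass: NQO1 at 0.15, UGT1A6 at 0.25, NFE2L2, which encodes NRF2, at 0.20, and the AHR repressor AHRR at 0.01.

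The NRF2 pathway list had the most called members. All 25 listed genes were tested, and 6 rose, beside 0.159% of all genes, and none fell, with a median log2 change of 0.13. Of the 25 estimates, 24 were above 0 and TXN, at -0.02, was below, beside 8563 above and 8400 below over all genes. Glutathione synthesis was represented by SLC7A11 (the cystine importer), GCLC and GCLM (the catalytic and the modifier subunit of the rate-limiting ligase), and carbonyl reduction by AKR1B10, AKR1C2 and AKR1C3. The GCLM promoter is shown because it was the only one of 5 promoters of these 6 genes with the antioxidant response element core (TGACNNNGC, either strand, in capitals as read on the printed strand). It is the 250 bases before the RefSeq start at chr1:93909431-93909680 on the minus strand of GRCh38.p14, and the core stands in 13.3% of all promoters in the table. SLC7A11 and AKR1B10 are not in the promoter table.
GCLM: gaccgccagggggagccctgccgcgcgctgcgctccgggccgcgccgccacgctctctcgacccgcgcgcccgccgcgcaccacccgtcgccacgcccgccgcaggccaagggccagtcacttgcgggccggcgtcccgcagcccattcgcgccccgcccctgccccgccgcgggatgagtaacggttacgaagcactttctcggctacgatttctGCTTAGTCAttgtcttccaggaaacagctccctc
The match begins 34 bases before the start.

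AKR1B10, a reductase of aliphatic and retinal aldehydes, stood at 145.3, 147.8 and 144.7 CPM at high dose and at 107.5, 105.3 and 111.7 CPM at medium dose. The 3 high-dose values lay above all low-dose (100.1 and 98.8 CPM) and vehicle (109.5 to 112.5 CPM) values, and the log2 rise from medium to high was 0.43 ± 0.05 (SE, adjusted p = 9.47e-08). AKR1C2, a hydroxysteroid dehydrogenase, held 24.2, 21.9 and 21.7 CPM at high and 15.2, 13.9 and 16.3 CPM at medium dose, a log2 rise of 0.59 ± 0.08 (SE, adjusted p = 2.3e-05). Its vehicle libraries, at 15.9 to 19.0 CPM, overlapped the medium dose. AKR1C3, a prostaglandin and androgen reductase, rose from 48.6, 45.7 and 51.2 to 60.2, 64.4 and 66.5 CPM, by 0.40 ± 0.08 (log2, SE, adjusted p = 0.00766). Its call was lost without high replicate 2 or without high replicate 3, with an adjusted p of up to 0.0864. The AKR1C genes are near-identical and RSEM divides shared reads among them, so their split is uncertain; AKR1C1, the remaining tested one, was at 0.23 and did not pass.

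GCLM held 75.2, 74.7 and 77.7 CPM at high dose and 45.4, 58.9 and 62.9 CPM at medium dose. Medium replicate 1 was the lowest of these libraries, and the log2 rise was 0.44 ± 0.07 with it (SE, adjusted p = 9.76e-05) and 0.32 without it (adjusted p = 0.00376). GCLC rose by less, 0.24 ± 0.05 (log2, SE, adjusted p = 0.00715), from 86.7, 88.1 and 89.9 to 109.0, 99.9 and 104.5 CPM. Its call was lost without high replicate 1 or medium replicate 1 (adjusted p up to 0.0967).

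SLC7A11 depended on medium replicate 1. It held 204.8, 201.7 and 203.4 CPM at high dose and 88.7, 165.7 and 154.1 CPM at medium dose, and its low-dose libraries, at 189.2 and 160.9 CPM, overlapped the medium-dose ones. The log2 rise was 0.57 ± 0.11 (SE, adjusted p = 0.00759) with all libraries and 0.35 without medium replicate 1 (adjusted p = 0.0865). The same library moved 5 further rises by over 1.5 times. Without it, CDK6, a cell cycle kinase, went from 0.43 to 0.23, SRFBP1 from 0.37 to 0.21, ARHGAP18 from 0.24 to 0.14, NAMPT, the rate-limiting enzyme of NAD salvage, from 0.23 to 0.11 and DCBLD2 from 0.22 to 0.14 (log2 changes). None of the 5 was then called (adjusted p from 0.526 to 0.648). Among the genes of at least 5 CPM, the median log2 change between doses in the class with the longest transcripts was 0.043 with medium replicate 1 and 0.011 without it, and in the shortest class -0.021 and -0.0035. The part of transcript length in these calls was not tested.

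Among the NRF2 targets that did not pass were HMOX1, the haem-degrading enzyme, with 14.0, 14.2 and 11.7 CPM at high and 12.6, 10.4 and 11.1 CPM at medium dose (0.24 ± 0.08, log2, SE, adjusted p = 0.216), and NQO1, the quinone reductase, with 569.2, 575.8 and 580.6 against 549.0, 493.8 and 517.9 CPM (0.15 ± 0.04, adjusted p = 0.0916). The NQO1 groups did not overlap, as in 14.5% of all genes, whereas the HMOX1 groups did. TXNRD1 (0.16) and ME1 (0.17) also had positive estimates that did not pass.

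**Figure D2:**
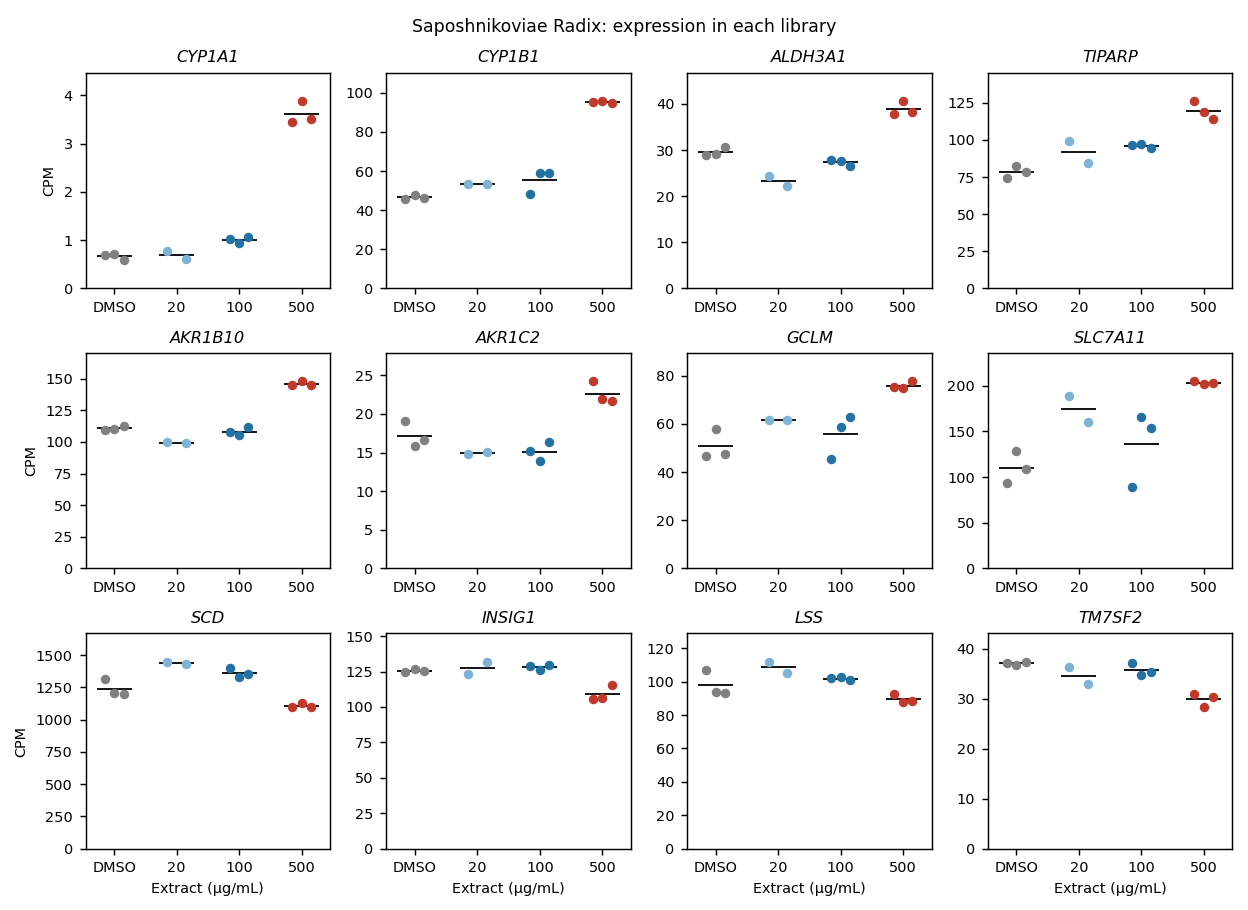
CPM of 12 called genes in each library (points; horizontal lines are group means) in the vehicle (DMSO) and at 20, 100 and 500 µg/mL of Saposhnikoviae Radix, with the axis of each panel starting at 0. In the panels of all genes that rose, the 3 high-dose points lie above every other point. These genes were picked among the called ones, and in 7.29% of all tested genes the 3 high-dose libraries lie above the 3 medium-dose libraries. In SLC7A11 and GCLM medium replicate 1 lies below its group, and in the 4 lipid genes of the bottom row all high-dose points lie below the medium-dose points.

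Other enzymes and carriers of foreign compounds rose singly, beside 0.159% of all genes that were called higher. UGT1A1, a glucuronosyltransferase for bilirubin and drugs, was the only called gene of 9 tested PXR and CAR targets: it held 64.1, 63.0 and 63.3 CPM at high and 46.9, 53.3 and 52.8 CPM at medium dose, a log2 rise of 0.31 ± 0.05 (SE, adjusted p = 0.000556). UGT1A10, which shares exons with UGT1A1 so that the division of reads is uncertain, rose by 0.16. ABCG2, an efflux pump of the cell membrane, was the only called gene of 9 drug efflux pumps, with 83.0, 87.3 and 86.5 against 72.2, 75.2 and 75.6 CPM (0.20 ± 0.03, log2, SE, adjusted p = 0.000491). ABCC1, ABCC3 and ABCC4 had estimates of 0.02, 0.07 and 0.00. ALDH1A3, which makes retinoic acid from retinal, rose from 32.6, 30.7 and 28.6 to 42.4, 43.2 and 41.3 CPM, by 0.47 ± 0.06 (log2, SE, adjusted p = 4.23e-06). ADGRF1, an adhesion receptor, rose by 0.45 ± 0.06 from 38.3, 43.3 and 38.0 to 55.4, 55.6 and 52.5 CPM, and SLC22A3, a carrier of organic cations, by 0.42 ± 0.10 from 7.31, 6.23 and 6.44 to 9.10, 9.24 and 8.26 CPM. SLC22A3 kept its call in 1 of the 6 fits that left out a library.

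LGR5, a receptor for R-spondins and a marker of intestinal stem cells, was the only called gene of 16 tested WNT targets, beside 0.283% of all genes. Its log2 rise was 0.29 ± 0.06 (SE, adjusted p = 0.029), from 28.8, 34.1 and 31.2 to 37.8, 38.9 and 38.7 CPM. The call was lost in 5 of the 6 fits with 1 library left out, with an adjusted p of up to 0.259 without medium replicate 1. AXIN2, RNF43 and MYC, further WNT targets, had estimates of 0.03, 0.04 and 0.05, and the list's median was 0.04.

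Lipid synthesis genes were among those that fell. SCD, the desaturase that makes monounsaturated fatty acids, had the smallest adjusted p of the falls: 1096, 1127 and 1098 CPM at high dose against 1404, 1327 and 1355 CPM at medium dose, a log2 change of -0.30 ± 0.04 (SE, adjusted p = 1.2e-05). Its vehicle libraries, at 1199 to 1318 CPM, lay between both doses, and its low-dose libraries, at 1451 and 1430 CPM, above them. SCD was the only called gene of 12 tested in fatty acid synthesis, beside 0.283% of all genes. The list's estimates were below 0 for 6 genes and above 0 for 6, with a median of -0.01. FASN was at -0.10, ACSS2 at -0.26, ELOVL6 at 0.13 and ME1 at 0.17, none of which passed.

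Of 25 cholesterol synthesis genes, all tested, 3 fell, beside 0.124% of all genes, and none rose. The list's median was -0.10 and 23 of 25 estimates were below 0, beside 8400 of 16978 over all genes. INSIG1, the sterol-regulated anchor of the SREBP escort protein, fell from 128.8, 125.9 and 129.8 to 105.9, 106.0 and 115.3 CPM, a log2 change of -0.23 ± 0.04 (SE, adjusted p = 0.00264). LSS, which closes the sterol rings, went from 102.0, 102.5 and 101.0 to 92.4, 87.6 and 88.6 CPM (-0.19 ± 0.04, adjusted p = 0.0178), and TM7SF2, a sterol reductase, from 37.1, 34.8 and 35.4 to 31.0, 28.4 and 30.4 CPM (-0.26 ± 0.06, adjusted p = 0.0313). In each of the 3 genes the high-dose libraries all lay below the medium-dose ones, as in 7.2% of all genes. Without high replicate 2 none of the 3 was called, with an adjusted p of 0.0589 for INSIG1, and over all single omissions up to 0.179 for LSS and 0.263 for TM7SF2. SQLE, the squalene epoxidase, was at -0.03 and HMGCS1, a synthase early in the pathway, at -0.13, neither of which passed, and the summed level of the list was 3768 to 3811 CPM at high and 3949 to 4037 CPM at medium dose. STARD4 (0.14) and SC5D (0.10) were the 2 members with estimates above 0.

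The remaining falls were of mixed function. TGFBI, a secreted matrix protein, fell from 62.8, 57.5 and 59.8 to 51.3, 47.4 and 49.4 CPM (-0.28 ± 0.05, log2, SE, adjusted p = 0.00108). The chloride channel protein CLIC5 (-0.35 ± 0.07) fell from 14.2, 16.8 and 14.7 to 12.3, 11.8 and 12.0 CPM, and PDZK1, a scaffold of brush border transporters, from 12.9, 12.8 and 13.3 to 10.8, 9.45 and 11.0 CPM (-0.32 ± 0.07). Without high replicate 2 neither was called (adjusted p up to 0.0846 for CLIC5 and 0.302 for PDZK1). VIL1, the actin bundler of microvilli, was the only called gene of 12 tested enterocyte genes and of 15 epithelial markers, beside 0.283% of all genes. Its levels were 148.1, 148.9 and 147.9 against 163.9, 159.4 and 166.8 CPM. VIL1 kept its call in 1 of the 6 fits with 1 library left out. Also lower were the actin binder TAGLN (-0.39), the glycolytic aldolase ALDOC (-0.35), the kinase NEK8 (-0.33), the proton pump subunit ATP6V1B1 (-0.29), creatine kinase CKB (-0.27), the adaptor PIK3AP1 (-0.27) and the potassium channel KCNQ1 (-0.24), and each lost its call without at least 2 of the single libraries.

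MX1, an interferon-induced GTPase, was the only called gene of 25 tested interferon response genes, beside 0.283% of all genes. It held 3.81, 2.47 and 3.01 CPM at high dose and 5.14, 5.89 and 5.14 CPM at medium dose (-0.81 ± 0.18, log2, SE, adjusted p = 0.0313), and the vehicle libraries, at 3.64 to 3.75 CPM, lay within the high-dose range. The call was lost without high replicate 2, high replicate 3 or medium replicate 1 (adjusted p up to 0.287). Of the list's estimates 21 were below 0, with a median of -0.12, and the largest of the others came from genes of low level, such as OAS2 (-0.92 at 2.16 CPM) and IFIT1 (-0.65 at 3.53 CPM).

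**Figure D3:**
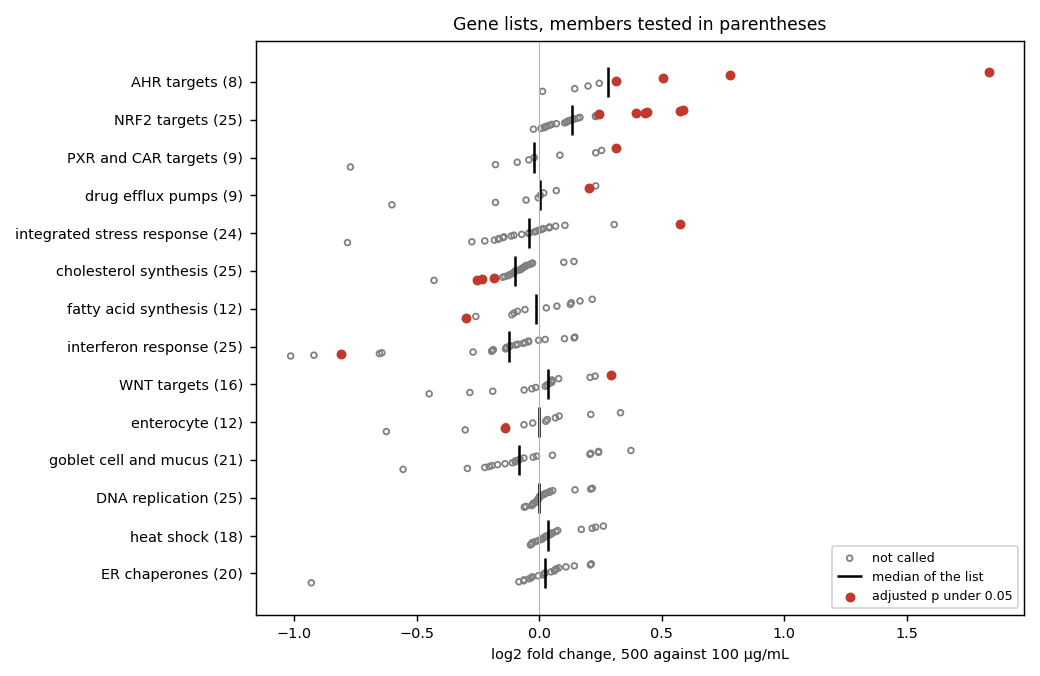
Log2 fold change from 100 to 500 µg/mL for each tested member of 14 gene lists (open circles not called, red points with an adjusted p under 0.05, vertical bars the list medians). The AHR targets have 4 called members and a median of 0.28, the NRF2 targets 6 and 0.13, and the cholesterol synthesis list has 3 called members, all lower, and a median of -0.10.

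No member was called in 24 of the 35 lists, among them DNA replication (25 tested, median 0.00), p53 targets (20, -0.04), ER chaperones (20, 0.02), heat shock (18, 0.03) and hypoxia and glycolysis (25, -0.02). Of all genes tested, 0.283% were called, so a list of this size without a called gene does not show that its genes were unaffected. Of 24 tested genes of the integrated stress response 1 rose, beside 0.159% of all genes: SLC7A11, which also stands among the NRF2 targets. ASNS, the asparagine synthetase of that list, held 49.7, 49.6 and 51.0 CPM at high and 58.4, 54.4 and 56.2 CPM at medium dose and did not pass (-0.17 ± 0.05, log2, SE, adjusted p = 0.126). The p53 target CDKN1A was at -0.20 ± 0.09 (adjusted p = 0.402). Of 21 tested goblet cell genes none was called, and the secreted mucins MUC2 (0.24 ± 0.22) and MUC5AC (0.21 ± 0.20) varied widely between libraries: MUC5AC held 279.6, 292.4 and 272.5 CPM at high and 300.7, 249.2 and 181.7 CPM at medium dose. All 13 mitochondrial transcripts had estimates above 0, up to 0.30, and none passed; the 6 libraries held 8.76% to 10.98% mitochondrial counts.

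The lower dose step, from 20 to 100 µg/mL, gave no called gene by edgeR's quasi-likelihood test or by DESeq2, with 1570 and 1316 genes at an unadjusted p of 0.05. High against low, which shares the high-dose libraries, called 49 genes, 31 higher and 18 lower (0.289%, or 0.183% and 0.106%). Of the 48 genes called for high against medium, 21 were also called here in the same direction. Among those not called here were SLC7A11 (0.22, adjusted p = 0.748), GCLM (0.30, adjusted p = 0.0741), TGFBI (-0.21, adjusted p = 0.0943) and LGR5 (0.20, adjusted p = 0.374). For CYP1A1 the estimates were 2.36 for high against low and 0.52 for medium against low, for CYP1B1 0.84 and 0.06, for AKR1B10 0.55 and 0.12, and for SCD -0.38 and -0.08 (log2). These comparisons share libraries and are set side by side only.

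Menthae Herba, the aerial part of mint, was given at the same doses and its libraries carry the same set number, with no library shared. Its step from 100 to 500 µg/mL called 2347 genes (13.8%), 1100 higher and 1247 lower. Of the 27 genes that rose with Saposhnikoviae Radix, 26 had a Menthae Herba estimate above 0 and 22 were called higher there, beside 49.3% and 6.48% of all genes. Of the 21 that fell, all 21 had an estimate below 0 and 20 were called lower there, beside 50.6% and 7.34% of all genes. The Menthae Herba step was the larger in size for 20 of the 27 rises and 17 of the 21 falls. LGR5, at -0.04 ± 0.06 (log2, SE) in Menthae Herba, was the 1 gene with opposite signs, and the difference between herbs was called for it (adjusted p = 0.034).

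CYP1A1 held 8.47, 7.74 and 6.38 CPM at the high and 1.24, 1.25 and 0.771 CPM at the medium dose of Menthae Herba, a log2 rise of 2.78 ± 0.19 (SE), above the 1.84 of Saposhnikoviae Radix by a difference that was not called (adjusted p = 0.065). CYP1B1 rose by 0.66 ± 0.05 with Menthae Herba and 0.78 ± 0.05 with Saposhnikoviae Radix (difference 0.12, adjusted p = 0.38). ALDH3A1 rose by 0.92 ± 0.04 with Menthae Herba against 0.51 (adjusted p of the difference = 1.2e-05), AKR1B10 by 0.96 ± 0.05 against 0.43 (adjusted p = 1.2e-06) and GCLM by 0.77 ± 0.06 against 0.44 (adjusted p = 0.043). The difference between herbs was called for 15 of the 48 genes, 7 that rose and 8 that fell. Over all genes it was called for 2.87% (2.03% with the more positive change in Saposhnikoviae Radix and 0.848% with the more negative). The 48 genes were picked by the Saposhnikoviae Radix step, which is itself part of this difference, so the 2 shares are not directly comparable.

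**Figure D4:**
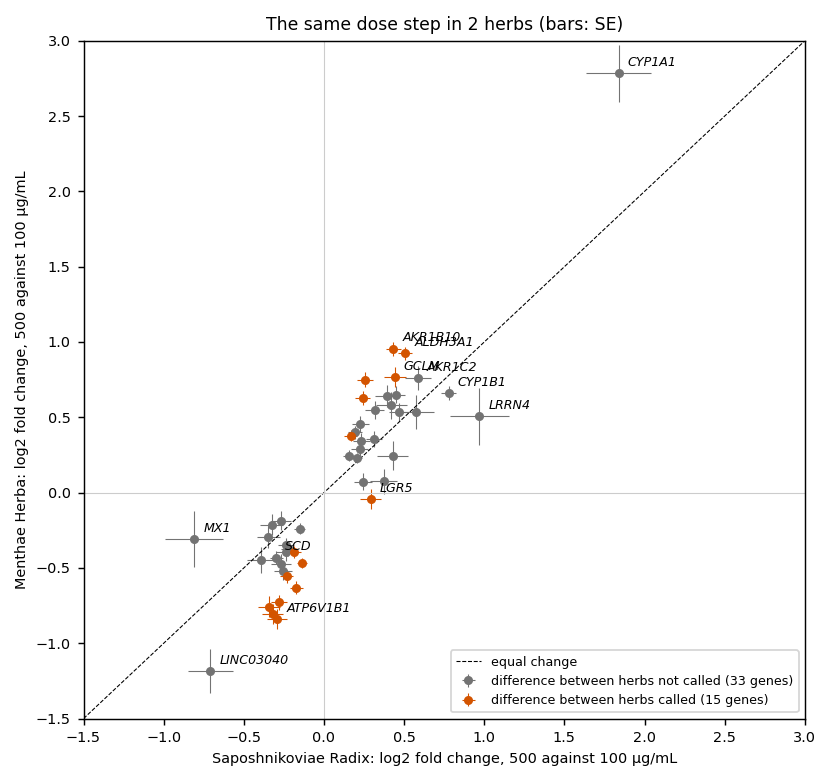
Log2 fold change from 100 to 500 µg/mL with Menthae Herba (vertical axis) against Saposhnikoviae Radix (horizontal axis) for the 48 genes called with Saposhnikoviae Radix, with SE bars and a dashed line of equal change. Of these, 47 lie in the quadrants of like sign, and of the 15 genes in orange, for which the difference between herbs was called, all but LGR5 lie farther from 0 with Menthae Herba.

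Okbyeongpung-san is a formula that contains Saposhnikoviae Radix, and its values, from 1 library per dose, have no replicate check. Its libraries carry another set number than those of Saposhnikoviae Radix. Between its 500 and 100 µg/mL libraries, 26 of the 27 risen genes were higher (96.3%, beside 49.0% of all genes; median log2 ratio 0.38) and 19 of the 21 fallen genes were lower (90.5%, beside 50.5%; median -0.29). The ratio was 1.63 for CYP1A1, 0.49 for CYP1B1, 1.16 for AKR1C2, 0.89 for ALDH3A1 and -0.21 for SCD (log2, with 0.5 added to each CPM). ARHGAP18 at -0.02, KCNQ1 at 0.01 and TAGLN at 0.00 were the 3 without the same sign.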

How the data were processed

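The authors deposited expected counts per gene for 60 libraries, on hg38 (GRCh38), with STAR 2.7.3a and RSEM 1.3.3 and, for the reads, Trim Galore 0.6.5 and FastQC 0.11.9, per the submitters' processing notes. For annotation release and strand setting: not given in the sources used here. Counts were rounded. Per the labels' protocols, directional libraries were made from RNA with an integrity number above 7 and read as 100 bp pairs.

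Tests used edgeR 4.0.16 (R 4.3.3) with TMM factors, filterByExpr by group, 1 coefficient per group, two-sided quasi-likelihood F-test, Benjamini-Hochberg over 16978 genes, called at an adjusted p under 0.05. The fit held 56 libraries (34 residual degrees of freedom); Saposhnikoviae Radix low replicate 2 and Okbyeongpung-san, with 1 library per dose, were left out of it. SE is the log2 fold change divided by the square root of F. Counting reads limits precision for genes of low level.

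Members and lists were chosen with earlier results of these data known. Named were the 12 largest rises and 12 largest falls among called genes with a symbol and a mean of at least 5 CPM, the 5 largest herb differences in each direction, up to 4 called genes per list, and 11 set genes, not all of which are reported here. Further called genes, list members that were not called and markers were named after their values were seen. Promoters are from RefSeq (GRCh38.p14), where 19 of the 27 risen and 16 of the 21 fallen genes matched by symbol. Coordinates and lengths are from GENCODE 29, where 10573 of 10598 genes had a length. Alternatives were RLE factors, DESeq2 1.42.0, no low-count filter, only the libraries compared, a replicate block, a 1.5-fold minimum and single omitted libraries.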

Additional observations from a re-analysis of the deposited data

Results flagged for a closer look

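The dose step differed between Saposhnikoviae Radix and Menthae Herba, by edgeR's test of the difference, in 488 genes (2.87%), 344 with the more positive change in Saposhnikoviae Radix and 144 with the more negative one. All values below are the log2 change of Saposhnikoviae Radix minus that of Menthae Herba.

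Among called genes with a symbol and a mean of 5 CPM or more, the largest positive differences were those of FCGBP, which makes a mucus protein (1.74), the secreted mucin MUC5AC (1.55), the secreted mucin MUC2 (1.5), the prolactin receptor PRLR (1.20) and LINC00261 (1.16), where Menthae Herba lowered the gene and the Saposhnikoviae Radix change was not called. FCGBP, for example, held 14.2, 15.8 and 14.6 CPM at the high and 17.8, 14.5 and 15.2 CPM at the medium dose of Saposhnikoviae Radix, against 4.07, 3.94 and 3.75 and 13.1, 14.4 and 13.9 CPM with Menthae Herba. Among the same genes the most negative were HMOX1 (-0.84), DUSP5 (-0.68), BOLA2B (-0.68), MIR22HG (-0.58) and RHOF (-0.57), which rose with Menthae Herba. BOLA2B has near-identical copies, so its reads may be divided.

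The genes given next are only further ones that the naming rules picked, and the 488 called genes include others. Among those picked, 5 NRF2 or AHR targets had a called negative difference: AKR1B10 (-0.52), ALDH3A1 (-0.42), GCLC (-0.39), GCLM (-0.32) and NQO1 (-0.30). No difference was called for CYP1A1, CYP1B1, TIPARP, SLC7A11, AKR1C2 or AKR1C3. The difference for ASNS was -0.35. Differences were positive for ATP6V1B1 (0.55), PDZK1 (0.49), TGFBI (0.45), CLIC5 (0.41), HMGCS1 (0.36), VIL1 (0.33), INSIG1 (0.32) and LSS (0.21), all of which fell with Menthae Herba, and for LGR5 (0.33).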

How the results depend on the processing

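No called gene changed direction under any alternative run. The 48 calls of high against medium became 6 with a 1.5-fold minimum, 498 without the low-count filter, 4 from the 6 libraries alone and 17 to 414 with single libraries left out. RLE factors gave 47 and DESeq2 52, 41 of which were among the 48. Of the 34 named called genes, 33 kept their call with RLE factors, 28 with DESeq2, 32 without the filter and 15 to 33 with single libraries left out. Without medium replicate 1, 27 of the 48 calls were lost. The same alternatives gave, for high against low (49), 10 with the minimum, 192 without the filter and 13 to 43 with single libraries left out; for medium against low (0), 401 without the filter and 0 to 28; for Menthae Herba (2347), 351 with the minimum; and for the difference between herbs (488), 111 with the minimum, 219 from the compared libraries alone and 250 to 777. In their deviations from the group, same-numbered high and medium libraries correlated at 0.14, -0.026 and 0.20, and those of Menthae Herba at 0.21, 0.082 and 0.21. Differently numbered pairs of the same herb lay between -0.19 and 0.052. The main fit did not pair libraries by number. A replicate block over all 56 libraries gave 72 calls for high against medium and 74 for high against low. It gave 2787 for Menthae Herba and 698 for the difference between herbs. A replicate block in the compared libraries alone gave 0 (high against medium), 231 (high against low), 3558 (Menthae Herba) and 201 (difference between herbs). The cause of these changes was not tested. With 3 libraries per dose, changes of low-level genes are the least certain.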
